A study of Mus musculus with 19 samples.

Results

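The potassium channel genes of the mouse heart are described here as the genes with the symbol prefix Kcn, chosen by their level: at least 1 TPM, a transcript level scaled for transcript length and for the library's total, in 3 or more of 18 heart RNA libraries. Of 97 genes with that prefix 35 met this level, in a table of 56066 genes of which 14812 met it, and the other 62 stayed under it. Kcne3 and the antisense transcript Kcnq1ot1 were left out. PDK1, a protein kinase, was deleted conditionally in the cKO hearts of the series, and wild-type hearts (WT) were taken for comparison as the heart matured after birth. The libraries were 3 of P7 cKO hearts, 3 of P21 cKO hearts, 3 of P1 WT hearts, 5 of P7 WT hearts and 4 of P21 WT hearts, where P1, P7 and P21 are postnatal day 1, day 7 and day 21. The design text of the series gives the youngest age as P0, and the labels give P1. The labels name the tissue as heart and the genotype as WT or PDK1 cKO. The sources used here give neither the deleted gene's symbol, the Cre driver and the strain of the cKO mice nor whether libraries come from separate animals, so a p-value measures only how these libraries spread. Titles had 2 styles: 7 WT libraries (3 at P1, 2 at P7 and 2 at P21) had letter codes in their titles. The other 11 libraries, all cKO ones among them, had plain numbers, so title style was a term of each test. The code of the 2 such P21 WT libraries was B6, which no cKO title held. Whether it names a strain is not given in the sources used here.

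Potassium channels carry the outward currents that return the heart muscle cell to its resting voltage after each beat. The transient outward current, built from Kcnd2, Kcnd3 and Kcna4 pores with the cytosolic subunit Kcnip2, makes the early notch of repolarization and is large in the adult mouse ventricle. The delayed rectifiers (Kcna5, Kcnh2, and Kcnq1 with its small partner Kcne1) end the action potential. Inward rectifiers hold the resting voltage (Kcnj2, Kcnj12), slow the atria and pacemaker when acetylcholine or adenosine is released (Kcnj3 with Kcnj5, the current IKACh) and open when ATP runs low (Kcnj8 and Kcnj11 with a sulfonylurea receptor, the KATP channel). Leak channels with 2 pore domains (Kcnk2, Kcnk3) and small-conductance calcium-activated channels (Kcnn genes) add background current. The set changes after birth in mouse heart as repolarization shortens.

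TPM keep no count of reads, so depth was unknown. From 12422 to 13797 genes reached 1 TPM per library, and libraries of a group correlated with each other at r of 0.967 to 0.983 across genes. Transcripts of the mitochondrial genome held 13.7 to 24.2% of TPM. At P21 they held 20.25 to 20.41% in cKO and 22.6 to 24.17% in WT libraries, ranges that did not overlap. The 8 cardiomyocyte markers looked at (Myh6, Tnnt2, Tnni3, Actc1, Ryr2, Nkx2-5, Mb and Pln) summed to 36410 to 46790 TPM in every library. PDK1 can name the product of Pdpk1 or of Pdk1. Pdpk1 stood at 5.54, 5.55 and 4.95 TPM in P21 cKO hearts and at 7.65, 7.0, 6.17 and 6.60 TPM in P21 WT hearts, which gave a change of -0.15 ± 0.12 on the log2 scale (SE; adjusted p = 0.366 from limma). In P7 hearts its log2 change was -0.12 ± 0.11 (adjusted p = 1). Pdk1 was higher in P21 cKO than in P21 WT hearts by 0.36 ± 0.12 (adjusted p = 0.0473). A whole-gene level does not check a deletion of part of a gene. A further P21 library, number 63, was labelled cKO while its title lacked the KO that marks the other cKO titles, and it entered no group.

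The level that chose the members is a description and supports nothing further. Of the 35 genes 20 reached 1 TPM in all 18 libraries and 15 in some of them. Just inside the limit stood Kcna6, Kcnv2 and Kcnab3, with a third-highest library at 1.14, 1.24 and 1.34 TPM, and just outside stood Kcnab2, Kcnip3 and Kcnmb1 at 0.99, 0.97 and 0.86 TPM. At 1 age alone 4 genes reached the level: Kcnj4 in P1 WT hearts, Kcnv2 in P21 WT hearts, and Kcnd3 and Kcna7 in P21 hearts of both genotypes, so their age differences partly follow from the choice. Of the 62 genes outside, 6 were listed at 0 in every library. The pore gene of the large-conductance calcium-activated channel, Kcnma1, was among those outside, with a highest value of 0.34 TPM. In GENCODE M21 14 members shared exon bases with another gene, and 4 shared over 10% of them with an antisense RNA: Kcna6 (39.6%), Kcnmb4 (31.5%), Kcnj3 (31.1%) and Kcnk2 (12.2%). Whether the counting used strand was not given in the sources used here, so reads of such pairs cannot be told apart. The antisense RNAs were listed at up to 0.04 TPM for Kcna6, 0.47 TPM for Kcnmb4 and 0.52 TPM for Kcnk2, and that of Kcnj3 had no listed level.

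Kcnip2, Kcnd2 and Kcnj3 were the genes whose cKO differences at P21 held in each of 28 alternative settings, and the 250 bases before their RefSeq starts (build GRCm38.p6) are printed for that reason, 5′ to 3′ on the gene's strand, with motif matches in capitals. They lie at chr19:45816064-45816313 on the minus strand for Kcnip2, chr6:21215096-21215345 on the plus strand for Kcnd2 and chr2:55435720-55435969 on the plus strand for Kcnj3.
Kcnip2: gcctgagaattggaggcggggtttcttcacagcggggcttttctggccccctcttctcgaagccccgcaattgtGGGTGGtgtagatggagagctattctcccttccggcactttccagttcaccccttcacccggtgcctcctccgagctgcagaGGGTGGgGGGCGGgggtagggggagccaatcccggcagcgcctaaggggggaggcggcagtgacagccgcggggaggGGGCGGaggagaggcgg
Kcnd2: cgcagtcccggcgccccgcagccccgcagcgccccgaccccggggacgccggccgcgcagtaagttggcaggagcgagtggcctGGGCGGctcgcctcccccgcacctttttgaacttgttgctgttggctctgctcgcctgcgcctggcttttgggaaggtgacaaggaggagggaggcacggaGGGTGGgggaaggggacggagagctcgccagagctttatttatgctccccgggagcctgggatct
Kcnj3: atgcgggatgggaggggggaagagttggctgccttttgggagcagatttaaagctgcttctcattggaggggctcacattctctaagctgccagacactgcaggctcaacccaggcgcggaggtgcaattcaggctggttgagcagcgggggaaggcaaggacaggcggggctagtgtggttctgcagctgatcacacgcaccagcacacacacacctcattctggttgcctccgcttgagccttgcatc
On both strands 4 motifs were searched: the FOXO core GTAAACA, the CACCC box CCACCC bound by Klf factors, the GC box GGGCGG and the TATA box TATAAA. Kcnip2 held 2 CACCC boxes and 2 GC boxes, Kcnd2 held 1 of each and Kcnj3 held 0 of the 4 motifs. No base lay in more than 1 match. Across 32851 promoters of the same length 28.1% held a CACCC box, 32.7% a GC box, 3.17% the FOXO core and 12.4% the TATA box. The GC share was 66.8% for Kcnip2, 68.8% for Kcnd2 and 58.4% for Kcnj3, against a median of 52.4% over all promoters, and CpG pairs numbered 15, 22 and 7 against a median of 6. For Kcnd3 and Kcnj8, which also differed at P21, the windows held 1 and 2 CACCC boxes and none of the other motifs, with GC shares of 62.8% and 49.2%. A match is a run of letters, not a known site, and no match says only that these letters are not in this window.

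Summed over the 35 genes, channel transcripts held 532 ± 14.3 TPM in P21 cKO hearts (SD, n = 3) and 467 ± 28.7 TPM in P21 WT hearts (n = 4). The sum was 741 ± 24.7 TPM in P7 cKO hearts (n = 3), 731 ± 19.3 TPM in P7 WT hearts (n = 5) and 574 ± 25.8 TPM in P1 WT hearts (n = 3). Kcne1 alone held 29.7% of the members' mean TPM over the 18 libraries, followed by Kcnip2 with 14.2%, the leak channel Kcnk3 with 8.40%, the silent subunit Kcng2 with 7.25%, Kcnh2 with 7.23% and Kcnj11 with 7.19%. Kcne1 led through the P1 and P7 libraries: at P21 it averaged 36.6 TPM in cKO and 41.0 TPM in WT hearts, under Kcnip2 with 161 TPM in cKO and 92.0 TPM in WT hearts and Kcnk3 with 68.6 TPM in cKO and 58.5 TPM in WT hearts. Pores of the transient outward current were far lower than their Kcnip2 partner, with a mean of 4.0 TPM for Kcnd2 and 1.33 TPM for Kcnd3 against 87.1 TPM for Kcnip2. Of the strong inward rectifiers, Kcnj12 averaged 10.2 TPM and Kcnj2 averaged 8.26 TPM.

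**Figure D1:**
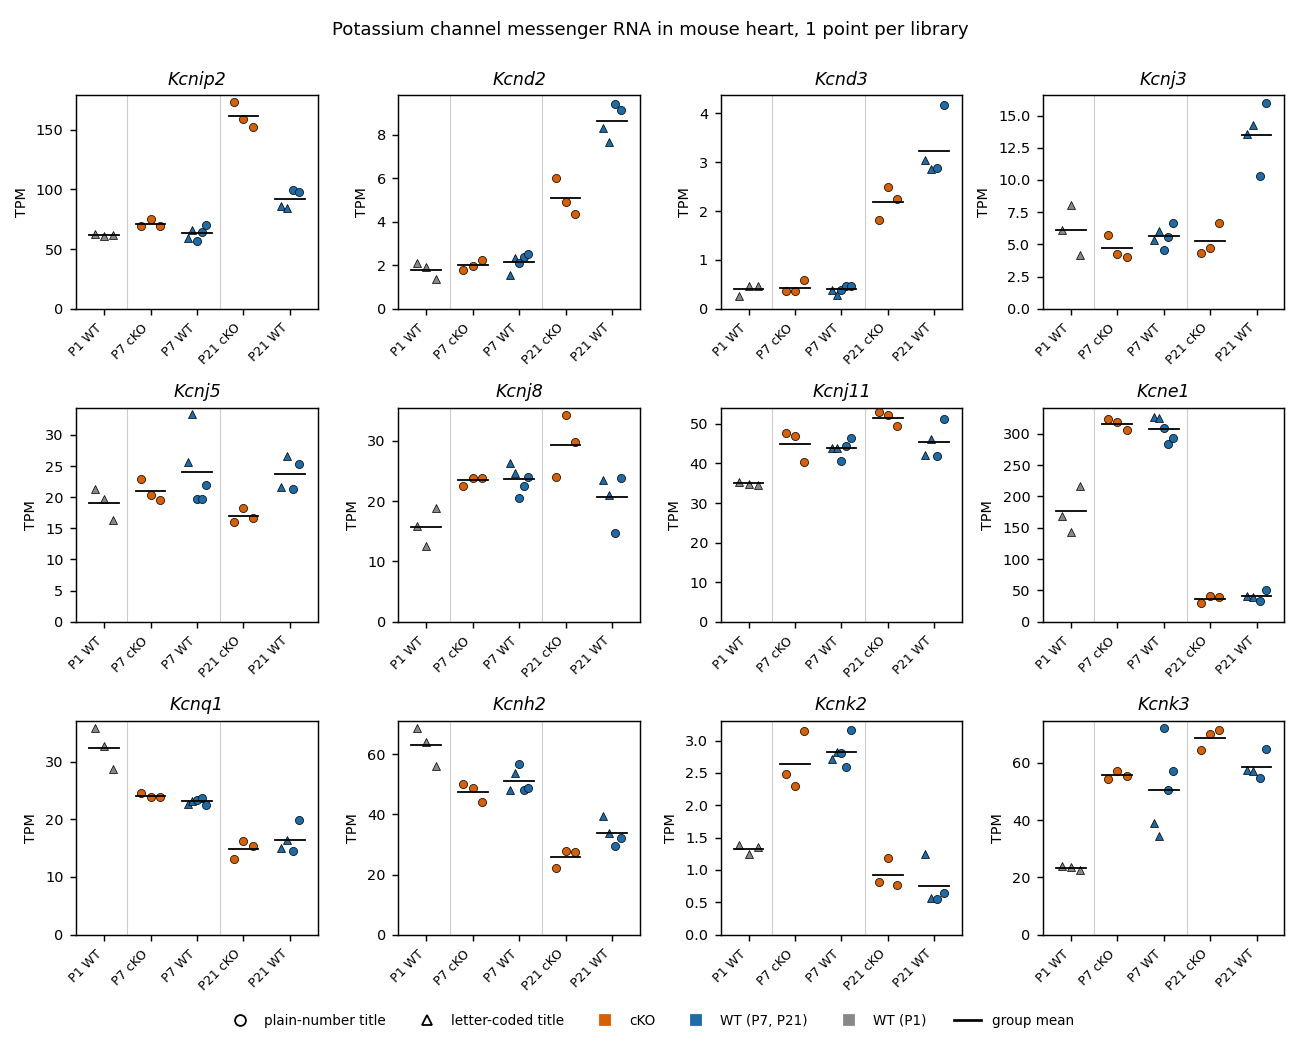
TPM (linear axes from 0) of 12 potassium channel genes in each of 18 heart libraries, in the order P1 WT, P7 cKO, P7 WT, P21 cKO and P21 WT. Circles are libraries with plain-number titles, triangles those with letter-coded titles, and lines are group means. Kcnip2 stood at 152 to 173 TPM in P21 cKO hearts, above 84.8 to 99.2 TPM in P21 WT hearts, and Kcne1 stood at 29.7 to 50.5 TPM in all 7 P21 libraries.

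At P21 the transient outward subunits differed between genotypes in opposite directions: Kcnip2 was higher and the pore genes Kcnd2 and Kcnd3 were lower in cKO than in WT hearts. The pore gene Kcnj3 of IKACh was lower, and the pore gene Kcnj8 of the vascular KATP channel was higher. These 5 genes, 2 higher and 3 lower, were the members that passed (14.3% of 35, against 21.3% of all genes tested), under limma on log2(TPM + 1) with Benjamini-Hochberg adjustment over 14812 genes at an adjusted p of 0.05. Of all genes 19.5% passed as higher and 1.77% as lower. The median gene stood 0.22 higher in cKO hearts on the log2 scale, and the median member 0.03 higher, with 8 of 35 members above the median gene. Changes are therefore also given relative to that shift. The libraries of both groups did not overlap for 13 members (31.6% of all genes did not overlap), and 11 members had an unadjusted p under 0.05.

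Kcnip2 (ENSMUSG00000025221; mm10, chromosome 19, 45791839 to 45816061, minus strand) encodes the calcium-binding subunit that brings Kcnd pores to the cell surface. It stood at 173, 159 and 152 TPM in the P21 cKO libraries, against 86.0, 84.8, 99.2 and 97.9 TPM in the P21 WT libraries. Every cKO library was far above every WT library. The log2 change was 0.75 ± 0.08 (SE; limma, adjusted p = 6.4e-05), or 0.54 relative to the median gene. It passed in each of 28 alternative settings, with 0.49 after median-ratio scaling and 0.53 after quantile normalization, which set the median gene near 0.

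Kcnd2 (ENSMUSG00000060882; chromosome 6, 21215503 to 21729805, plus strand), the main pore of the fast transient outward current in mouse ventricle, stood at 6.02, 4.91 and 4.35 TPM in P21 cKO libraries, against 8.29, 7.66, 9.40 and 9.12 TPM in P21 WT libraries. The groups did not overlap. Its log2 change was -0.76 ± 0.14 (limma, adjusted p = 0.0021), or -0.98 relative to the median gene, and it passed in each of 28 settings. Kcnd3 (ENSMUSG00000040896; chromosome 3, 105452330 to 105674002, plus strand), the second pore gene of that current, stood at 1.82, 2.49 and 2.24 TPM in P21 cKO libraries, against 3.04, 2.85, 2.89 and 4.17 TPM in P21 WT libraries. WT library 60 was the highest, and the other WT libraries lay close to each other and above the cKO libraries. The change was -0.48 ± 0.14 (limma, adjusted p = 0.0229), or -0.70 relative to the median gene. The Kcnd3 call was lost without cKO library 55 (-0.39, adjusted p = 0.0721), without cKO library 64 (-0.49, adjusted p = 0.0539), without WT library 60 (-0.35, adjusted p = 0.0672), among plain-number titles alone (-0.50, adjusted p = 0.0744) and at a pseudocount of 0.1 (-0.68, adjusted p = 0.0757).

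The slow transient outward pore Kcna4 stood at 0.71, 1.17 and 1.02 TPM in P21 cKO libraries, against 0.52, 0.54, 0.52 and 0.67 TPM in P21 WT libraries. The cKO values were all higher, yet the log2 change of 0.39 ± 0.17 did not pass (limma, adjusted p = 0.11). Kcnip1, a relative of Kcnip2, stood at 0.68 to 1.18 TPM in P21 cKO and at 0.14 to 3.22 TPM in P21 WT hearts, with a wide overlap. Summed over the 5 transient outward members, P21 cKO hearts held 171 ± 10.7 TPM (SD, n = 3) and P21 WT hearts 106 ± 7.38 TPM (n = 4), most of it Kcnip2.

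**Figure D2:**
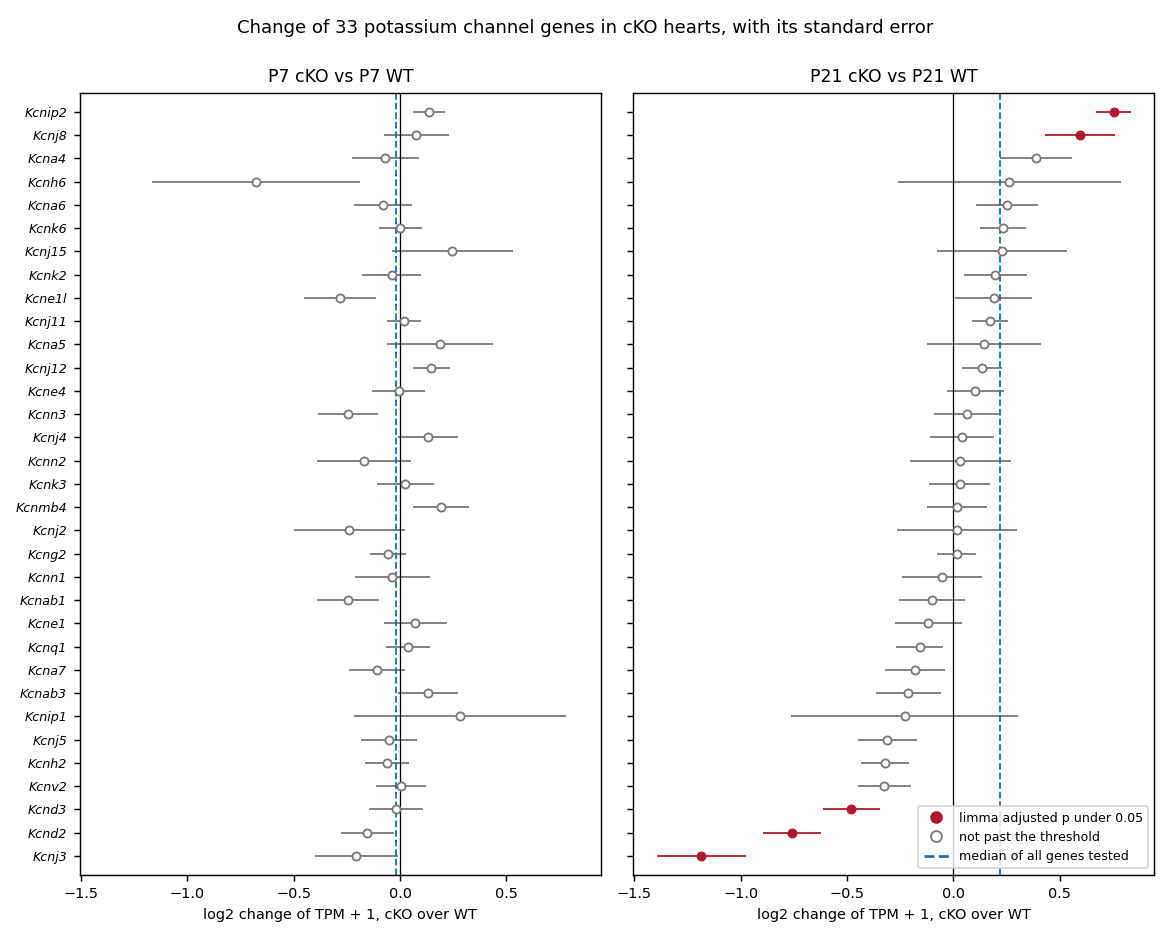
Log2 change of TPM + 1 between cKO and WT hearts at P7 and at P21 for 33 of the 35 members, with bars of 1 SE from limma. Red points passed an adjusted p of 0.05 and the dashed line is the median gene. At P21 the red points are Kcnip2 and Kcnj8 to the right of 0 and Kcnd3, Kcnd2 and Kcnj3 to the left, and at P7 there are 0 red points.

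In the acetylcholine-gated channel, Kcnj3 was lower in P21 cKO hearts while the change of its partner pore Kcnj5 did not pass. Kcnj3 (ENSMUSG00000026824; chromosome 2, 55435970 to 55598145, plus strand) stood at 4.37, 4.73 and 6.66 TPM in P21 cKO libraries, against 13.5, 14.3, 10.3 and 16.0 TPM in P21 WT libraries. No cKO library reached the lowest WT library. The log2 change was -1.19 ± 0.21 (limma, adjusted p = 0.00188), the largest in size of any member in this comparison, or -1.40 relative to the median gene, and it passed in each of 28 settings. In the annotation 31.1% of the exon bases of Kcnj3 are shared with the antisense RNA Gm26794, which had no listed level in these libraries. Kcnj5 stood at 16.0, 18.3 and 16.7 TPM in P21 cKO libraries, against 21.7, 26.7, 21.4 and 25.4 TPM in P21 WT libraries. The groups did not overlap, and the change of -0.31 ± 0.14 did not pass (limma, adjusted p = 0.12). Median-ratio scaling brought it past the threshold as lower (-0.57, adjusted p = 0.00787), as did quantile normalization (-0.49, adjusted p = 0.0205). On unscaled values Kcnj5 also passed as lower without the title style term, among plain-number titles alone and without P7 WT library 3.

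Upstream of that channel, the adenosine receptor gene Adora1 was also lower in P21 cKO hearts, at 2.87, 3.07 and 3.18 TPM, against 5.76, 5.47, 5.52 and 5.45 TPM in P21 WT hearts. Each group lay within a narrow range far from the other. The change was -0.74 ± 0.11 (limma, adjusted p = 0.000566), passed in each of 28 settings, and was larger in size at P21 than at P7 (difference of the changes -0.71, adjusted p = 0.0101). The muscarinic receptor Chrm2, through which acetylcholine opens the channel, stood at 18.3, 22.9 and 18.6 TPM in P21 cKO and at 25.3, 25.4, 18.9 and 29.4 TPM in P21 WT libraries. Those groups overlapped, and the change of -0.19 did not pass (adjusted p = 0.399). Of 18 tested receptor, G protein and Rgs genes of this arm 9 passed as higher and 1 as lower in P21 cKO hearts (19.5% and 1.77% of all genes), with a median log2 change of 0.34 against 0.22 for all genes. Among them were the G protein subunits Gnb4 (0.77, adjusted p = 0.00713), Gnai2 (0.38, adjusted p = 0.00174) and Gng11 (0.47, adjusted p = 0.00446). After median-ratio scaling 1 passed as higher and 3 as lower, and after quantile normalization 2 as higher and 1 as lower. Of all genes 4% and 4.11% passed as higher after these scalings, and 5.33% and 4.42% as lower.

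Kcnj3 and Adora1 are richer in atrium than in ventricle in mouse, so the atrial markers were set beside them. In bulk heart RNA fewer cells of a type and less RNA per cell cannot be told apart. Of 11 atrial markers 4 passed as higher (Nppa, Nr2f1, Nr2f2 and Pam) and 0 as lower in P21 cKO hearts (19.5% and 1.77% of all genes). After median-ratio scaling 3 passed as higher (4% of all genes), and after quantile normalization 3 (4.11% of all genes). Without Nppa, the natriuretic peptide gene that rises in stressed ventricle, the atrial markers summed to 351 to 560 TPM in P21 cKO and to 262 to 295 TPM in P21 WT libraries. The atrial light chain Myl7 stood at 17.7, 55.6 and 135 TPM in P21 cKO and at 52.1, 75.5, 64.3 and 51.7 TPM in P21 WT libraries. The atrial marker Myl4 stood at 15.0, 38.2 and 110 TPM in P21 cKO and at 36.3 to 58.7 TPM in P21 WT libraries. Sln stood at 1.67, 4.63 and 11.45 TPM in P21 cKO and at 2.61 to 5.58 TPM in P21 WT libraries. For each of these genes the highest and the lowest library were both cKO, and none of them passed. Myl7 was lowest and Kcnj3 lowest in cKO library 55. Bmp10, an atrial growth factor, was listed at 0 in 6 of the 18 libraries. Of 5 tested conduction system genes the pacemaker channel Hcn4 passed as lower (-0.84, adjusted p = 0.0155). The part of atrial content in the Kcnj3 difference was not tested.

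Among the ATP-sensitive channel genes, Kcnj8 and the sulfonylurea receptor Abcc9 were higher in P21 cKO hearts, and the changes of Kcnj11 and Abcc8 did not pass. Kcnj8 (ENSMUSG00000030247; chromosome 6, 142564837 to 142571614, minus strand) encodes the pore known from smooth muscle and pericytes. It stood at 24.0, 34.3 and 29.8 TPM in P21 cKO libraries, against 23.4, 21.02, 14.7 and 23.8 TPM in P21 WT libraries. The groups nearly touched, with the lowest cKO library just above the highest WT library. The log2 change was 0.59 ± 0.16 (limma, adjusted p = 0.0206), or 0.38 relative to the median gene. The Kcnj8 call was lost after quantile normalization (0.37, adjusted p = 0.172) or median-ratio scaling (0.35, adjusted p = 0.186), among plain-number titles (0.61, adjusted p = 0.064), without cKO library 59 (0.48, adjusted p = 0.0897), without cKO library 64 (0.58, adjusted p = 0.0599) and without WT library 57 (0.40, adjusted p = 0.125).

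Abcc9 lies 16247 bases from Kcnj8 on chromosome 6 and encodes the receptor subunit that pairs with it in vessels and with Kcnj11 in ventricle. It stood at 78.4, 81.95 and 70.1 TPM in P21 cKO libraries, against 53.5, 56.2, 42.9 and 62.4 TPM in P21 WT libraries. The change was 0.61 ± 0.17 (limma, adjusted p = 0.0199), lost after both scalings, without cKO library 59 and without WT library 57. Kcnj11, the ventricular pore, stood at 53.1, 52.2 and 49.5 TPM in P21 cKO and at 42.1, 46.2, 41.9 and 51.3 TPM in P21 WT libraries, a change of 0.17 ± 0.08 (adjusted p = 0.151). Abcc8, 3758 bases from Kcnj11 on chromosome 7, changed by 0.37 without passing (adjusted p = 0.0882). Markers of vessel cells moved with Kcnj8. Of 10 mural cell markers 4 passed as higher, where 19.5% of all genes did. Their sum was 782 to 1079 TPM in P21 cKO and 496 to 733 TPM in P21 WT libraries. WT library 57 was lowest and cKO library 59 highest in both the mural sum and Kcnj8. Of 8 endothelial markers 7 passed as higher, with sums of 517 to 571 TPM in P21 cKO and 333 to 448 TPM in P21 WT libraries, and of 7 fibroblast markers 7 passed as higher. After median-ratio scaling 2 mural, 1 endothelial and 3 fibroblast markers passed as higher, and after quantile normalization 2, 3 and 4. Of all genes 4% and 4.11% passed as higher after these scalings. On unscaled values the 8 cardiomyocyte markers gave 0 calls. Their sums were 42790 to 45660 TPM in P21 cKO and 42910 to 46790 TPM in P21 WT libraries. After median-ratio scaling 2 of these markers passed as lower, and after quantile normalization 1 as higher and 1 as lower. Of all genes 5.33% and 4.42% passed as lower after these scalings. The part of vessel cell content in the Kcnj8 difference was not tested.

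The other members did not pass at P21. The rapid delayed rectifier pore Kcnh2 stood at 22.2, 27.9 and 27.5 TPM in P21 cKO libraries, against 39.3, 33.9, 29.6 and 32.3 TPM in P21 WT libraries. All cKO values were lower, and the change of -0.32 ± 0.11 narrowly missed the threshold (limma, adjusted p = 0.0536); it passed in 7 of the settings, with -0.58 (adjusted p = 0.00525) after median-ratio scaling. Kcnq1, the slow delayed rectifier pore, changed by -0.16 ± 0.11 (adjusted p = 0.29) and its subunit Kcne1 by -0.12 ± 0.16 (adjusted p = 0.604). After both scalings the members' calls were 1 higher, Kcnip2, and 8 lower, with Kcnh2, Kcnj5, Kcnq1 and the silent subunit Kcnv2 among the lower genes beside Kcnd2, Kcnd3 and Kcnj3. That was 25.7% of the members after either scaling, against 9.32% of all genes after median-ratio scaling (4% higher and 5.33% lower) and 8.53% after quantile normalization (4.11% higher and 4.42% lower). The members' share of calls was thus below that of all genes on the unscaled values and above it on the scaled ones. Kcnv2 met the level for choice in P21 WT hearts alone, so its lower level in P21 cKO hearts partly follows from the choice.

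The ultrarapid pore Kcna5 stood at 25.7, 9.59 and 10.4 TPM in P21 cKO and at 11.2, 13.9, 16.6 and 9.33 TPM in P21 WT libraries. Library 55 was far above the other cKO libraries, and the change of 0.14 ± 0.27 did not pass (adjusted p = 0.72). The main resting-current pore Kcnj2 stood at 5.19, 11.7 and 10.7 TPM in P21 cKO and at 10.6, 9.55, 6.15 and 12.3 TPM in P21 WT libraries, which overlapped (0.02 ± 0.28). Kcnj12 changed by 0.14 ± 0.09, the acid-sensitive leak channel Kcnk3 by 0.03 ± 0.14, the stretch-sensitive leak channel Kcnk2 by 0.20 ± 0.15 and the calcium-activated Kcnn2 by 0.03 ± 0.24. After median-ratio scaling the values were -0.10 for Kcnj12, -0.23 for Kcnk3, -0.22 for Kcnj2 and -0.20 for Kcnn2, none of which passed. Kcnk3 stood at 64.3 to 71.6 TPM in P21 cKO and at 54.8 to 64.6 TPM in P21 WT libraries, with a small overlap. Its change of 0.03 came from the model with the title style term. Kcnn2 averaged 5.66 ± 2.59 TPM in P21 cKO (SD, n = 3) and 6.45 ± 2.01 TPM in P21 WT hearts (n = 4), and without the title style term its change was -0.19.

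At P7 none of the 35 genes passed between cKO and WT hearts, beside 3 of all 14812 genes (0.0203%), and 0 members had an unadjusted p under 0.05, as 494 genes of the table did. The changes ran from -0.68 for Kcnh6 to 0.28 for Kcnip1, both genes with widely spread libraries. Kcnip2 stood at 69.02, 75.6 and 69.7 TPM in P7 cKO libraries, against 59.03, 65.7, 56.6, 64.6 and 70.0 TPM in P7 WT libraries. These overlapped, and the change was 0.13 ± 0.08 (limma, adjusted p = 1). The change at P7 was -0.15 ± 0.13 for Kcnd2, -0.02 ± 0.13 for Kcnd3, -0.20 ± 0.19 for Kcnj3 and 0.08 ± 0.15 for Kcnj8, each with an adjusted p of 1. The libraries of both groups did not overlap for 2 members (4% of all genes). In the partner lists and in each marker list 0 genes passed at P7.

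The cKO change was then compared between P21 and P7 in the same model. It differed for 3 members, 1 higher and 2 lower (8.57%, against 7.56% of all genes, 7.04% higher and 0.52% lower), and the median gene itself moved by 0.24. The cKO change of Kcnip2 was higher at P21 than at P7 by 0.62 ± 0.10 (limma, adjusted p = 0.00494). That of Kcnj3 was lower at P21 by 0.98 in size (-0.98 ± 0.27, adjusted p = 0.0386) and that of Kcnd2 by 0.61 in size (-0.61 ± 0.17, adjusted p = 0.046). None of the 3 held in every setting: the Kcnip2 call was lost in 3 of 28 (both scalings and plain-number titles alone), the Kcnj3 call in 13 and the Kcnd2 call in 19. Kcnd3 (-0.46 ± 0.17, adjusted p = 0.0983) and Kcnj8 (0.52 ± 0.21, adjusted p = 0.119) did not pass.

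In WT hearts the subunit gene Kcne1 and several leak and inward rectifier pores were higher at the end of the first week than after birth, and few members were lower. Between P7 and P1, 9 members passed as higher and 3 as lower (12 of 35, or 34.3%, against 28.5% of all genes). Of all genes 13.8% were higher and 14.7% lower. Libraries of both ages did not overlap for 12 members (30.9% of all genes). The P7 WT libraries are also the reference of the P7 cKO comparison and of the next age step, so these comparisons share libraries.

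Kcne1 (chromosome 16, 92345982 to 92359468), the subunit that slows Kcnq1, stood at 284 to 326 TPM in the 5 P7 WT libraries and at 169, 143 and 217 TPM in the P1 WT libraries (0.86 ± 0.16, limma, adjusted p = 0.000947). Its pore Kcnq1 moved the other way, with 22.6 to 23.8 TPM in P7 WT and 35.9, 32.8 and 28.7 TPM in P1 WT libraries (-0.50 ± 0.11, adjusted p = 0.00317). The leak channels Kcnk3 (0.80 ± 0.14, adjusted p = 0.000834) and Kcnk2 (0.77 ± 0.15, adjusted p = 0.00147) and the calcium-activated Kcnn3 (0.73 ± 0.15, adjusted p = 0.00232) were higher at P7. Both ATP-sensitive pores were higher: Kcnj8 by 0.69 ± 0.16 (adjusted p = 0.00565) and Kcnj11 by 0.30 ± 0.08 (adjusted p = 0.0146). Abcc9 was higher too (0.79 ± 0.17, adjusted p = 0.00284), beside 6 of 8 endothelial markers. Of 10 mural markers 4 passed as higher and 2 as lower at P7 (13.8% and 14.7% of all genes). Their sum averaged 804 ± 116 TPM in P7 WT (SD, n = 5) and 852 ± 124 TPM in P1 WT hearts (n = 3). The part of vessel cells was not tested.

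In the strong inward rectifier group, Kcnj4 was highest in P1 hearts. It stood at 0.11 to 0.39 TPM in P7 WT libraries and at 2.71, 2.51 and 1.82 TPM in P1 WT libraries (-1.45 ± 0.15, adjusted p = 1.31e-05), a difference that its choice partly fixed. Kcnj2 stood at 7.97 to 10.7 TPM in P7 WT and at 7.13, 3.66 and 4.75 TPM in P1 WT libraries (0.88 ± 0.28, adjusted p = 0.0289). That call was lost without a filter on low values (0.88, adjusted p = 0.0664) and without P1 library 2 (0.69, adjusted p = 0.12), P1 library 3 (0.84, adjusted p = 0.064), P7 library 1 (0.83, adjusted p = 0.086) or P7 library 3 (0.90, adjusted p = 0.0678). Kcnj5 was higher at P7 by 0.48 ± 0.14 (adjusted p = 0.0192), although its libraries overlapped. That call was lost without P1 library 3 (0.37, adjusted p = 0.0721), without P7 library 3 (0.30, adjusted p = 0.128), without the title style term (0.30, adjusted p = 0.118) and among letter-coded titles alone (0.60, adjusted p = 0.0563). The Kcnj11 call was lost without P7 library 3 (0.29, adjusted p = 0.052). The calcium-activated channel's beta subunit Kcnmb4 was lower at P7 (-0.54 ± 0.14, adjusted p = 0.0105); the call was lost without P7 library 3 (-0.45, adjusted p = 0.0586) and at a pseudocount of 0.1 (-0.77, adjusted p = 0.136). No transient outward member passed in this week.

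**Figure D3:**
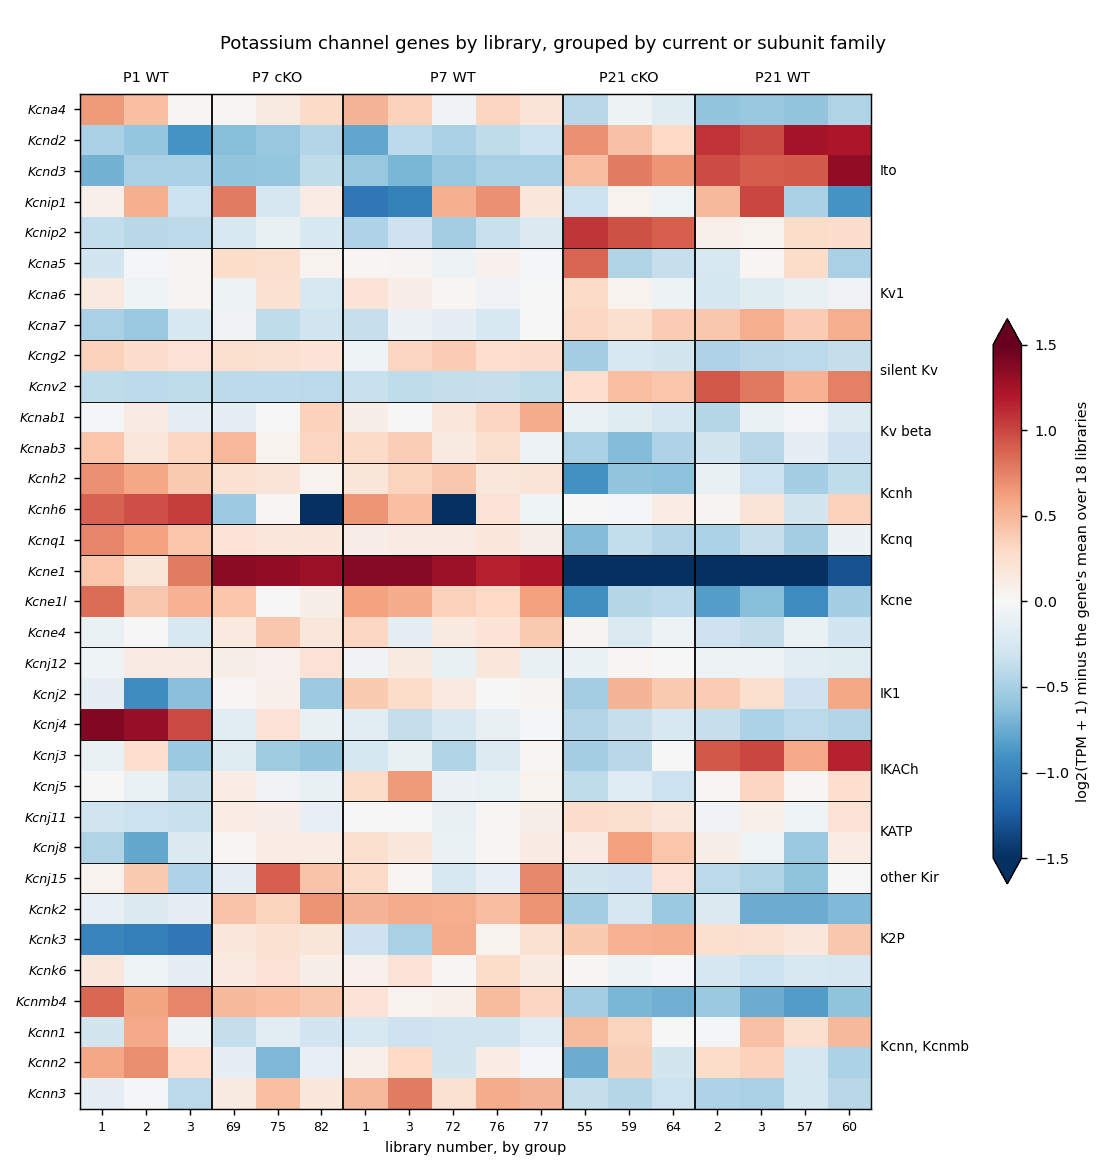
Log2(TPM + 1) of 33 of the 35 members, each minus its mean over the 18 libraries (colour, from -1.5 to 1.5), with libraries in columns by group and members in rows by current or subunit family. Kcnd2, Kcnd3 and Kcnj3 are above their mean in P21 WT libraries, and Kcne1, Kcnk2 and Kcnn3 are above it in P7 libraries.

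From P7 to P21 in WT hearts the transient outward pores Kcnd2 and Kcnd3 rose, as did Kcnj3, while Kcne1 and the transient outward pore Kcna4 fell. In this step 9 members passed as higher and 14 as lower (23 of 35, or 65.7%, against 72.5% of all genes). Of all genes 8.1% passed as higher and 64.4% as lower, and the median gene stood 0.47 lower at P21. Relative to it 25 of 35 members were above. Libraries of both ages did not overlap for 20 members (60.3% of all genes). After median-ratio scaling 14 members passed as higher and 6 as lower, and after quantile normalization 13 and 6, where 27% and 26.3% of all genes passed as higher and 27.4% and 28.2% as lower. The P21 WT libraries also serve in the P21 cKO comparison, so the values of a gene in both comparisons share them.

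Kcnd2 stood at 8.29, 7.66, 9.40 and 9.12 TPM in P21 WT libraries and at 1.54, 2.32, 2.12, 2.36 and 2.5 TPM in P7 WT libraries (1.63 ± 0.11, limma, adjusted p = 4.41e-09; 2.10 relative to the median gene). Kcnd3 stood at 2.85 to 4.17 TPM in P21 WT and at 0.28 to 0.47 TPM in P7 WT libraries (1.61 ± 0.11, adjusted p = 4.83e-09), part of which the choice of the gene fixed. In cKO hearts the same genes were at 4.35 to 6.02 TPM (Kcnd2) and 1.82 to 2.49 TPM (Kcnd3) at P21. So at P21 all cKO libraries stood above all P7 libraries for both pores, and below all P21 WT libraries. Kcnip2 stood at 84.8 to 99.2 TPM in P21 WT and at 56.6 to 70.0 TPM in P7 WT libraries (0.55 ± 0.07, adjusted p = 2.13e-06). Kcnj3 stood at 10.3 to 16.0 TPM in P21 WT and at 4.57 to 6.70 TPM in P7 WT libraries (1.11 ± 0.17, adjusted p = 2.51e-05). The P21 cKO range of Kcnj3, 4.37 to 6.66 TPM, overlapped both the P7 WT range and the P7 cKO range of 4.05 to 5.71 TPM.

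Other members higher at P21 included the silent subunit Kcnv2 (1.10, adjusted p = 1.35e-07, with P7 WT libraries at 0.02 to 0.05 TPM), the pore Kcna7 (0.63, adjusted p = 0.000123), the calcium-activated Kcnn1 (0.56, adjusted p = 0.00374) and Kcnk3 (0.29, adjusted p = 0.0325). Kcnv2 and Kcna7 reached 1 TPM at P21 alone and had to differ. The Kcnn1 call was lost among letter-coded titles (0.48, adjusted p = 0.2). The Kcnk3 call was lost in 9 settings: P7 WT libraries spread from 34.4 to 72.1 TPM, with both letter-coded libraries lowest, and among plain-number titles the change was 0.01 (adjusted p = 0.957).

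Kcne1 fell most of all, to 40.8, 39.9, 32.7 and 50.5 TPM in P21 WT libraries, against 284 to 326 TPM in P7 WT libraries (-2.90 ± 0.13, adjusted p = 3.53e-11; -2.43 relative to the median gene). In cKO hearts it was 29.7, 40.7 and 39.5 TPM at P21 and 307, 318 and 324 TPM at P7, so the range of cKO libraries met that of WT libraries at both ages. Its relative Kcne1l fell by 1.22 (-1.22 ± 0.15, adjusted p = 2.42e-06), Kcnk2 by 1.15 (-1.15 ± 0.12, adjusted p = 4.83e-07), Kcnn3 by 0.92 (-0.92 ± 0.12, adjusted p = 6.47e-06), Kcnmb4 by 0.91 (-0.91 ± 0.11, adjusted p = 3.41e-06) and Kcna4 by 0.83 (-0.83 ± 0.14, adjusted p = 5.84e-05). Kcne1 and these genes were the 6 that passed as lower after both scalings.

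The other calls for lower levels at P21 depended on scale. Kcng2 (-0.63), Kcnh2 (-0.60), and the beta subunits Kcnab3 (-0.48) and Kcnab1 (-0.40) did not pass after either scaling. The change of Kcnq1 was -0.47 unscaled and 0.08 and 0.05 after median-ratio and quantile scaling. Kcne4, an inhibitor of Kcnq1 channels, changed by -0.43 and Kcnk6 by -0.40, which became 0.01 and 0.05 after quantile normalization. On the TPM scale Kcnq1 stood at 14.6 to 19.9 TPM in P21 WT and 22.6 to 23.8 TPM in P7 WT libraries.

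On unscaled values over the 3 WT ages, 7 members passed as higher in the second step alone: Kcna7, Kcnd2, Kcnd3, Kcnip2, Kcnj3, Kcnn1 and Kcnv2. In the first step alone 4 did: Kcnj11, Kcnj2, Kcnj5 and Kcnj8. After both scalings Kcnj11 (0.49 to 0.61), Kcnj2 (0.54 to 0.57) and Kcnj5 (0.46 to 0.52) also passed as higher in the second step. Kcnj8 passed there as higher after median-ratio scaling (0.33), and as lower with array quality weights or without P21 WT library 60. Kcnk3 passed as higher in both steps. Kcne1, Kcnk2 and Kcnn3 passed as higher in the first step and lower in the second. Kcnmb4 passed as lower in both, as did Kcnq1, whose change in the second step was 0.08 after median-ratio scaling. The 7 members with no call in either step on unscaled values of all 18 libraries were Kcna5, Kcna6, Kcnh6, Kcnip1, Kcnj12, Kcnj15 and Kcnn2. Of these, Kcnj12 passed as higher in the second step after both scalings (0.39 to 0.41). Kcna5 ranged from 10.9 to 13.9 TPM in P1 WT, from 12.8 to 14.2 TPM in P7 WT and from 9.33 to 16.6 TPM in P21 WT hearts.

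**Figure D4:**
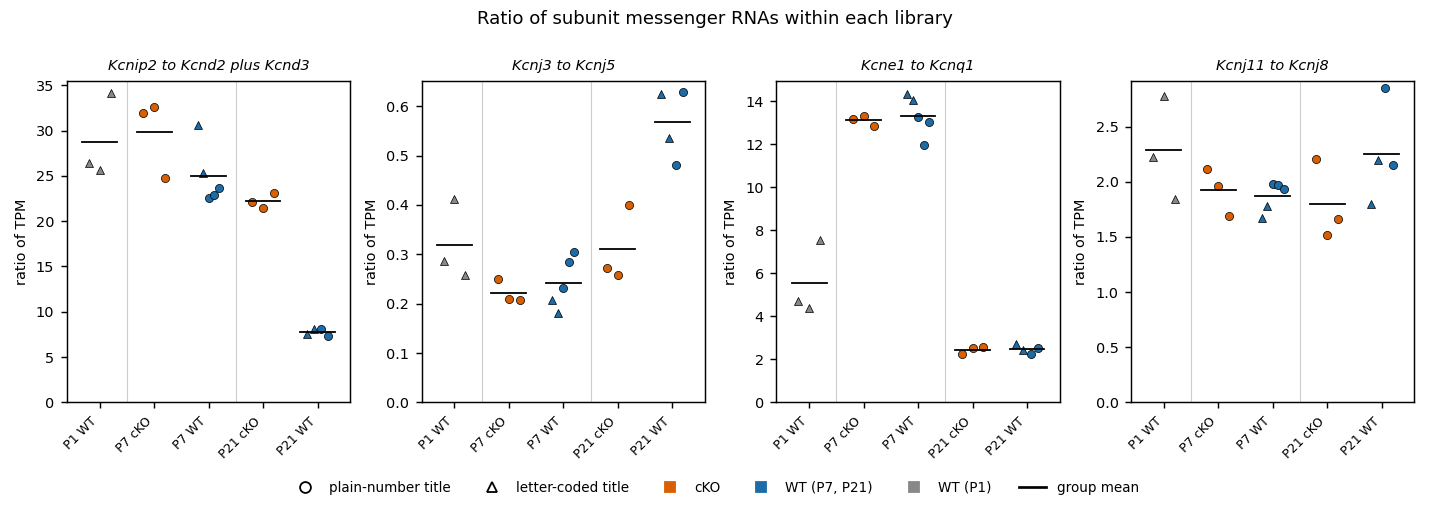
Ratios of TPM of channel partners in each of 18 libraries (y axes, no unit), by group, with circles for plain-number titles, triangles for letter-coded titles and lines for group means. The ratio of Kcnip2 to Kcnd2 plus Kcnd3 was 21.5 to 23.1 in P21 cKO hearts and 7.36 to 8.07 in P21 WT hearts, and the other 3 ratios are Kcnj3 to Kcnj5, Kcne1 to Kcnq1 and Kcnj11 to Kcnj8.

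Ratios within a library were taken on unscaled TPM and describe the balance of partner transcripts, with no test. Median-ratio scaling, a single factor per library, leaves them unchanged, while quantile normalization can change them. The ratio of Kcnip2 to its pores Kcnd2 plus Kcnd3 was 22.1, 21.5 and 23.1 in P21 cKO libraries, against 7.59, 8.07, 8.07 and 7.36 in P21 WT libraries. It was 29.8 ± 4.32 in P7 cKO (SD, n = 3), 25.0 ± 3.31 in P7 WT (n = 5) and 28.8 ± 4.68 in P1 WT hearts (n = 3). The P21 WT libraries stood apart from all others, and the P21 cKO libraries lay near the lower end of the P7 WT libraries, whose lowest ratio was 22.5. Kcnj3 to Kcnj5 was 0.310 ± 0.0781 in P21 cKO and 0.567 ± 0.0721 in P21 WT hearts, against 0.222 in P7 cKO, 0.242 in P7 WT and 0.318 in P1 WT hearts. Kcne1 to Kcnq1 was 2.44 ± 0.158 in P21 cKO and 2.48 ± 0.197 in P21 WT hearts, 13.1 in P7 cKO and 13.3 in P7 WT hearts, and 5.54 in P1 WT hearts, so it moved with age and overlapped between genotypes. Kcnj11 to Kcnj8 was 1.80 ± 0.363 in P21 cKO and 2.25 ± 0.437 in P21 WT hearts, which overlapped. Kcnd2 to Kcnd3 was 2.41 ± 0.780 in P21 cKO and 2.71 ± 0.436 in P21 WT hearts, which overlapped as well.

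Proteins that bind or move channels and transcription factors known to act on channel genes gave few calls that were independent of scale. Of 13 tested binding and trafficking genes 3 passed as higher in P21 cKO hearts, the cAMP-binding Popdc2 (0.36 ± 0.06, limma, adjusted p = 0.00117), Popdc3 (0.66, adjusted p = 0.00605) and Bves (0.46, adjusted p = 0.015), of a family known to bind Kcnk2. That was near the 19.5% of all genes that passed as higher. After median-ratio scaling 0 passed and after quantile normalization 1. Of 15 transcription factors 5 passed as higher (19.5% of all genes): Irx3, Irx4, Irx5, Hey2 and Nfatc4. After each scaling 1 was left, where 4% and 4.11% of all genes passed as higher. Nfatc4, a calcium-responsive factor, passed in each of 28 settings (0.63 ± 0.13, adjusted p = 0.00562). Irx5, known in mouse to repress Kcnd2, changed by 0.58 ± 0.17 (adjusted p = 0.0294), and its call was lost in 8 settings, both scalings among them. Klf15, known in mouse to drive Kcnip2, averaged 22.9 ± 3.26 TPM in P21 cKO (SD, n = 3) and 16.1 ± 3.57 TPM in P21 WT hearts (n = 4), and its change of 0.32 did not pass (adjusted p = 0.196).

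With age in WT hearts, Chrm2 rose between P7 and P21 beside Kcnj3 (1.14 ± 0.13, adjusted p = 9.92e-07; 1.68 and 1.65 after the scalings), averaging 24.7 ± 4.33 TPM at P21 (SD, n = 4) and 10.4 ± 1.54 TPM at P7 (n = 5). Chrm2 was the 1 higher gene of the 18 tested in that arm, with 13 lower, among them Gnb1 (-1.27) and Gnai2 (-1.13). Of all genes 8.1% passed as higher and 64.4% as lower. After either scaling 5 genes of the arm passed as higher and 9 as lower. Of all genes 27% and 26.3% then passed as higher, and 27.4% and 28.2% as lower. Klf15 was 25.8 TPM at P1, 5.63 TPM at P7 and 16.1 TPM at P21 in WT hearts, lower in the first step (-2.23, adjusted p = 1.37e-06) and higher in the second (1.39, adjusted p = 4.21e-07). Hey2, a transcriptional repressor of ventricular muscle, was lower in both steps (-2.46 and -1.38), and kept its calls after both scalings. Of the 13 binding and trafficking genes 1 passed as higher and 11 as lower at P21 against P7 (8.1% and 64.4% of all genes), and 2 and 3 after either scaling. Of the 15 transcription factors 1 passed as higher and 12 as lower in that step, and 2 and 7 after either scaling, beside the same shares of all genes.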

How the data were processed

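RNA of 19 mouse heart libraries was measured by sequencing. The authors deposited levels in TPM for each gene, with no counts, so depth was unknown. TopHat2 2.0.14, Cufflinks 2.2.1 and the build mm10 are named in the submitters' processing notes; the tool that made the TPM is not given in the sources used here, nor is its annotation. Per the labels' protocols, extraction used RNA iso Plus and library preparation a SMARTer mRNA-Seq kit. Of the genes listed 55487 had Ensembl identifiers and 579 were assembled by the authors; 2 columns that belong to no sample of the series and 7 columns of the authors' means were not used.

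Library 63 entered no fit. Genes reaching 1 TPM in 3 or more of 18 libraries were fitted as log2(TPM + 1), a scale that understates changes of low genes, with limma 3.58.1 (lmFit, eBayes with trend; R 4.3.3, with version 1.17.8 of data.table) in a model of group and title style, with all 5 groups sharing 1 estimate of the spread. P-values were adjusted by Benjamini-Hochberg per comparison, with a threshold of 0.05; the step was tested on simulated data. Members, lists and roles were chosen with earlier results of these data known. Named are the members, except 2 that count in the totals and are not reported here, and from each partner list up to 4 genes by smallest p at P21 cKO against WT and up to 2 in the age comparisons; genes named beside these were chosen after their values were seen. Positions are from GENCODE M21 on mm10, matched for 35 of 35 members, and promoters from RefSeq on GRCm38.p6, which held 24 of the 35. Python 3.11.15, numpy 2.4.6 and matplotlib 3.10.9 searched motifs and drew figures.

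The fit was repeated with quantile normalization, with median-ratio scaling, without haemoglobin and mitochondrial genes, with a stricter filter (5 TPM) or none, with a pseudocount of 0.1, without the title style term, within each title style, with array quality weights, with a replicate block and without each library in turn. Partner genes with age and marker lists after scaling were added after seeing the data.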

Additional observations from a re-analysis of the deposited data

Results flagged for a closer look

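In groups of 4 or 5 libraries the highest or lowest library was set against the others for each of 35 members in 2 groups, 70 pairs in all, of which 3 stood apart; by chance about 1 in 20 would. Kcna4 was 0.67 TPM in P21 WT library 60, with the other P21 WT libraries at 0.52 to 0.54 TPM. Kcnd3 was 4.17 TPM in P21 WT library 60, with the others at 2.85 to 3.04 TPM; without that library the lower level of Kcnd3 in P21 cKO hearts did not pass (log2 change -0.35, adjusted p = 0.0672). Kcnk2 was 1.24 TPM in P21 WT library 2, with the others at 0.55 to 0.64 TPM.

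The cKO change differed between the ages for 3 members (8.57%, near the 7.56% of all genes), by the interaction term of the limma model. None of the 3 calls held in every alternative setting. The log2 change of Kcnip2 was higher at P21 than at P7 by 0.62 (adjusted p = 0.00494), that of Kcnj3 lower (-0.98, adjusted p = 0.0386) and that of Kcnd2 lower (-0.61, adjusted p = 0.046).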

How the results depend on the processing

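Of the calls above, 3 of 5 at P21 cKO against WT (Kcnip2, Kcnd2 and Kcnj3), 8 of 12 at P7 WT against P1 WT, 13 of 23 at P21 WT against P7 WT and 0 of 3 for the difference between ages passed in every alternative setting run. The count of members called at P21 cKO against WT was 5, and 9 (1 higher, 8 lower) after median-ratio scaling, 9 (1 and 8) after quantile normalization and 8 (2 and 6) without the title style term. All genes called in that comparison numbered 3155 unscaled (21.3%), 1381 after median-ratio scaling (9.32%) and 1264 after quantile normalization (8.53%). Without the title style term they numbered 3048 of 14812. Of the members 14.3% were called unscaled and 25.7% after either scaling. At P21 WT against P7 WT a filter of 5 TPM, which left 18 members, gave 10 calls, beside 8408 of 10529 genes. The split of higher to lower members in that step was 14 to 6 after median-ratio scaling and 13 to 6 after quantile normalization. Of all genes 27% and 26.3% passed as higher after these scalings, and 27.4% and 28.2% as lower. Unscaled the split was 9 to 14, where 8.1% of all genes passed as higher and 64.4% as lower. The difference between ages had 3 calls, beside 1120 of 14812 genes. It had 1 without a filter (621 of 30937 genes) and 1 with the replicate block (755 of 14812). It had 0 among plain-number titles (102 of 14812) and 6 with array quality weights (5212 of 14812). The split was 0 to 4 and 0 to 3 after the scalings, where 2.33% and 2.19% of all genes passed.

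With each library left out, members called ranged from 0 to 0 at P7 cKO against WT and 4 to 7 at P21 cKO against WT. They ranged from 8 to 13 at P7 against P1, with 8 without P7 WT library 3. They ranged from 21 to 24 at P21 against P7 and from 1 to 4 for the difference between ages. All genes called ranged, in that order, from 2 to 7, 1471 to 5055, 3093 to 4520, 10069 to 10945 and 357 to 3123 of 14812. The member count for the difference between ages was 1 without each of P7 cKO libraries 69, 75 and 82, P7 WT libraries 1 and 76, P21 cKO library 59 and P21 WT libraries 2 and 3. Among the members named, changes that turned direction with a call on either side were all at P21 WT against P7 WT. Changes with no call turned in every comparison; at P21 cKO against WT 10 of 33 did so after median-ratio scaling and 9 after quantile normalization. The turned changes with a call, all of P21 WT against P7 WT, were as follows. After median-ratio scaling the log2 changes of that age step were 0.39 for Kcnj12, 0.52 for Kcnj5, 0.33 for Kcnj8 and 0.077 for Kcnq1. After quantile normalization they were 0.0065 for Kcne4, 0.41 for Kcnj12, 0.46 for Kcnj5, 0.046 for Kcnk6 and 0.04997 for Kcnq1. In the same age step Kcnh6 changed by -0.44 among letter-coded titles, and Kcnip1 by -1.15 among plain-number titles. Among letter-coded titles Kcnip1 instead changed by 1.79, and it passed within both title styles. The scalings set the median gene near 0 by construction; the cause of the other shifts was not tested.

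Replicate numbers did not pair the libraries: only letter-coded WT libraries share numbers, and their deviations from group means correlated at -0.0951 to 0.0657. With the replicate block the member counts were 0, 5, 12, 21 and 1 in the order of the comparisons above, beside 2, 2734, 3876, 10387 and 755 of 14812 genes. TPM hold no depth, so no counting error could be given for low genes such as Kcnv2 and Kcnab3.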

Other observations

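Library 63, labelled cKO at P21 under a title like those of WT libraries, was compared gene by gene with the ranges of both P21 groups. Of the 35 members 14 lay in the range of the P21 cKO libraries and 25 in that of the P21 WT libraries, with 11 in both and 7 in neither. Kcnip2 was 74.8 TPM, below the lowest library of either P21 group. Kcnj3 was 16.1 TPM, Kcnd2 8.85 TPM, Kcnd3 4.11 TPM and Kcnj8 20.2 TPM. Its ratio of Kcnip2 to Kcnd2 plus Kcnd3 was 5.77, below that of every other library. Kcnip1 was 5.23 TPM, above every other library. The authors' own P21 WT mean column counted this library as WT.

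Some members varied widely within a group. Kcnh6, a relative of Kcnh2, stood at 5.20, 8.17 and 0.68 TPM in P7 cKO libraries and at 13.4, 11.4, 1.97, 9.54 and 7.64 TPM in P7 WT libraries. Kcnip1 was listed at 0 and 0.04 TPM in the letter-coded P7 WT libraries and at 1.37 to 2.38 TPM in the plain-number ones. Kcnk3 stood at 38.9 and 34.4 TPM in the letter-coded P7 WT libraries and at 50.4 to 72.1 TPM in the plain-number ones.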
